A study of Homo sapiens with 6 samples.

Results

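The 30 protein-coding genes described here lie on chromosome 11 around SERPING1, from SPI1 in 11p11 on the short arm, across the centromere, to CTNND1 in 11q12 on the long arm. They were taken from a fixed list of 30 genes among the 58051 genes of the deposited table and ordered by position. The list was chosen by the difference in these normalized counts between the lines, which was already known, so the values of these genes are a description and carry no test. In GRCh38 they span chr11:47354860-57819546, or 10.5 Mb. RNA-seq was done on A2780, a human ovarian cancer cell line sensitive to doxorubicin, and on A2780-ADR, its derivative resistant to adriamycin (another name for doxorubicin), with 3 samples of each line. No drug treatment of the sequenced cells is described for either line, and both were grown in RPMI 1640 with fetal bovine serum. Each is a single line, so the resistance and any other difference between them cannot be told apart. Levels are DESeq-normalized read counts per gene, and 27775745 to 30513366 reads fell in genes per sample.

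Chromosome 11 carries one of the largest clusters of olfactory receptor genes in the genome, and part of it lies on the long arm within this span, before LRRC55. Olfactory receptors are odorant receptors of the nasal epithelium and are silent in most other cells. SERPING1 encodes C1 inhibitor, a secreted serpin that blocks the complement proteases C1r and C1s as well as plasma kallikrein and factor XII, and its inherited loss causes hereditary angioedema. The genes around it are unrelated in function and include housekeeping genes of the proteasome, nuclear pore, Mediator complex and mitochondria, as well as genes known from blood, nerve or muscle.

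Before the results, the labels were checked against marker genes. ABCB1, the drug efflux pump of resistant cells, had 3 reads in all A2780 libraries together and 87803 in A2780-ADR. Summed epithelial markers (EPCAM, KRT8, KRT18, KRT19, CDH1) were 280.1 to 316 normalized counts in A2780 and 12330.3 to 13777 in A2780-ADR, where KRT8 and KRT18 made up most of the sum, and CDH1 averaged 4.79 and 4.14. None of 5 ovarian carcinoma and Müllerian markers (PAX8, WT1, ESR1, MUC16, MSLN) reached a mean of 10 over the 6 samples, and their sums were 11.2 to 15.8 and 30.3 to 47.2. Within one line PAX8 (15.3) and ESR1 (10.9) averaged over 10 in A2780-ADR and MSLN in A2780 (10.3, against 2.56 in A2780-ADR). Summed fibroblast markers were 894 to 948 and 5852 to 5944, with COL1A1, COL1A2 and PDGFRB higher, DCN lower (113 and 21.03) and LUM not called (43.4 and 22.3). Endothelial markers summed to 0 to 1.06 and 27.4 to 37.6, mostly KDR. In bulk RNA, fewer cells of a type and less RNA per cell cannot be told apart.

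Of the 30 genes, 23 reached the mean of 10 normalized counts over the 6 samples that was needed for the comparison. A gene was called at a limma adjusted p under 0.05 and a change of more than 2-fold. By this rule 7 of the 23 were lower in A2780-ADR, 0 were higher and 16 were not called. Among the 7, FOLH1, LRRC55 and SMTNL1 reached the mean of 10 through A2780 alone and could only be called lower. Among all 17005 genes tested, 27.6% were called, 14.4% lower and 13.2% higher. The samples of the lines did not overlap in 16 of the 23, against 74.6% of all genes tested. Without the fold threshold, 4 of the 23 were higher and 13 lower, where 71.8% of all genes tested were called (35.4% higher and 36.4% lower). At an unadjusted p under 0.05 and any fold the counts were also 4 and 13, and edgeR and DESeq2, like limma, called 0 higher and 7 lower. The median log2 fold change (A2780-ADR minus A2780) was -0.22 over the 23 genes and -0.01 over all genes tested. The genes not reaching a mean of 10 were SPI1, RAPSN, C1QTNF4, APLNR, PRG3, PRG2 and BTBD18.

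The 7 lower genes were FOLH1 alone near the centromere and, in 11q12, LRRC55, TNKS1BP1, RTN4RL2, SMTNL1, SERPING1 and YPEL4. The 12 genes from SPI1 to PTPRJ on the short arm held 9 tested genes and 0 calls. The 6 genes from CLP1 to CTNND1 at the far end held 5 tested genes and 0 calls.

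**Figure D1:**
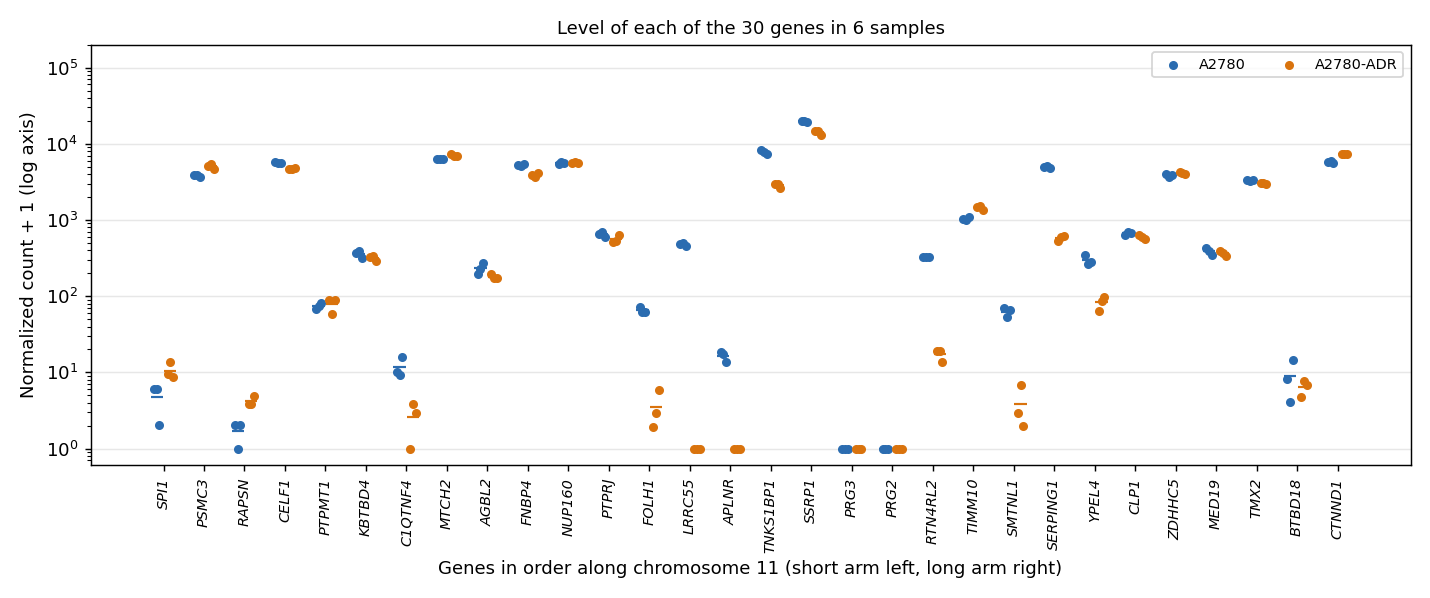
Normalized count + 1 (log axis) of the 30 genes in order along chromosome 11. Each point is 1 sample, blue for A2780 and orange for A2780-ADR, and the short lines are means of 3 samples. The orange points lie far under the blue ones for FOLH1, LRRC55, RTN4RL2, SMTNL1, SERPING1 and YPEL4, and close to them for most genes at both ends.

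Promoter sequence is shown for genes of the SERPING1 neighbourhood because the windows of genes that were lower and of genes that were not called differed in CpG content, a difference noticed after the values were seen. RefSeq promoter windows of 300 bases (250 before the start and 50 from it on, GRCh38.p14) matched 19 of the 30 genes. The windows are LRRC55 (plus strand, chr11:57181703-57182002) and YPEL4 (minus strand, chr11:57649863-57650162), which were lower, and SSRP1 (minus strand, chr11:57335843-57336142) and TIMM10 (minus strand, chr11:57530705-57531004), which were not called. They are written 5′ to 3′ with each CpG dinucleotide in capitals.
LRRC55: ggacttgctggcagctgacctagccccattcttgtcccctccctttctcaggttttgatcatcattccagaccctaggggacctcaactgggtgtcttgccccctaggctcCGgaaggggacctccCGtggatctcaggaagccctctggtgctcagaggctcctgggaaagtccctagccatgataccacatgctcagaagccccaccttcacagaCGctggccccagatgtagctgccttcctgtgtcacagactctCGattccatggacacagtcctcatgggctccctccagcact
YPEL4: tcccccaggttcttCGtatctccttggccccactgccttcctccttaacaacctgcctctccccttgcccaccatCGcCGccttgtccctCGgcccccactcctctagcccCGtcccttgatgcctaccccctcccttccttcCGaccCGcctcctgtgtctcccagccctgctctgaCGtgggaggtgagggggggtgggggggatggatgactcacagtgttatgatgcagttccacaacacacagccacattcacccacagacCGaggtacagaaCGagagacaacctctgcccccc
SSRP1: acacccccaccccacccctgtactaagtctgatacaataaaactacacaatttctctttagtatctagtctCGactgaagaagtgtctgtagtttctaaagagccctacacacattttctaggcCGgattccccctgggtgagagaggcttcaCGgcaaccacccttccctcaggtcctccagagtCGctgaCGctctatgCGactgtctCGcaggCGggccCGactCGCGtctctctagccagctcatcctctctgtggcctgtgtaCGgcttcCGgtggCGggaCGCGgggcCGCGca
TIMM10: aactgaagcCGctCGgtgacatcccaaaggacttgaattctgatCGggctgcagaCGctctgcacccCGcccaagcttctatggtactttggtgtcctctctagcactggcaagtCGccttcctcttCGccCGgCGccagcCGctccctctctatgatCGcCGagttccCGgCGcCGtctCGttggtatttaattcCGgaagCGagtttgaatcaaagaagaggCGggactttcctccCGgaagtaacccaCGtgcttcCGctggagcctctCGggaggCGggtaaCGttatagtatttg
The LRRC55 window holds 4 CpGs and the YPEL4 window 10, whereas those of SSRP1 and TIMM10 hold 18 and 25.

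The ratio of observed to expected CpGs, which corrects for base composition, was 0.163 for LRRC55, 0.236 for SMTNL1 and 0.384 for YPEL4. These were the 3 lower genes with a window, and none reached 0.6, a usual mark of CpG-rich promoters. All 14 windows of tested genes that were not called were above it, among them SSRP1 at 0.771, TIMM10 at 1.03 and CLP1 at 1.03. The listed genes with a window that were not tested were under it. They were BTBD18 at 0.395, whose samples overlapped between the lines, and PRG3 at 0, which had no reads in any sample. Of all 35116 windows, 48.9% reached 0.6. Genes with CpG-poor windows were also called more often in the genome at large: 44.6% of 1955 tested protein-coding genes under 0.6 were called, 22.3% lower, against 20.5% of 8506 at 0.6 or more, 10.8% lower. Among neighbours not on the list that were lower, P2RX3 (0.0905) and OR5AK2 (0.143) had CpG-poor windows, but SLC43A1 (0.681) and UBE2L6 (0.919) did not. Outside the span, NR1H3 (0.105), MADD (0.244) and CNTF (0.136) were CpG-poor and not called, MYBPC3 (0.155) was CpG-poor and higher, and GLYATL1 (0.657) and FAM111A (0.752) were lower with windows above 0.6. The RefSeq start of SMTNL1 lies 5046 bases and that of CLP1 8770 bases from the gene start of the annotation used for positions. FOLH1, TNKS1BP1, RTN4RL2 and SERPING1 are among the genes with no window.

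Short motifs were searched on both strands of the 19 windows. The cAMP response element TGACGTCA was in 0 of 19 (1.85% of all windows), and its core TGACG, which the full element contains, was in 6 (24.6% of all windows), YPEL4 and SSRP1 included. The CCAAT box was in 5 (34.6%), the GC box GGGCGG in 13 (45.0%), TATAAA in 2 (11.5%) and the interferon-gamma type element TTCNNNGAA in 1 (7.66%). Of the 3 lower genes, YPEL4 held the TGACG core, SMTNL1 held a GC box and LRRC55 held none of these motifs.

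**Figure D2:**
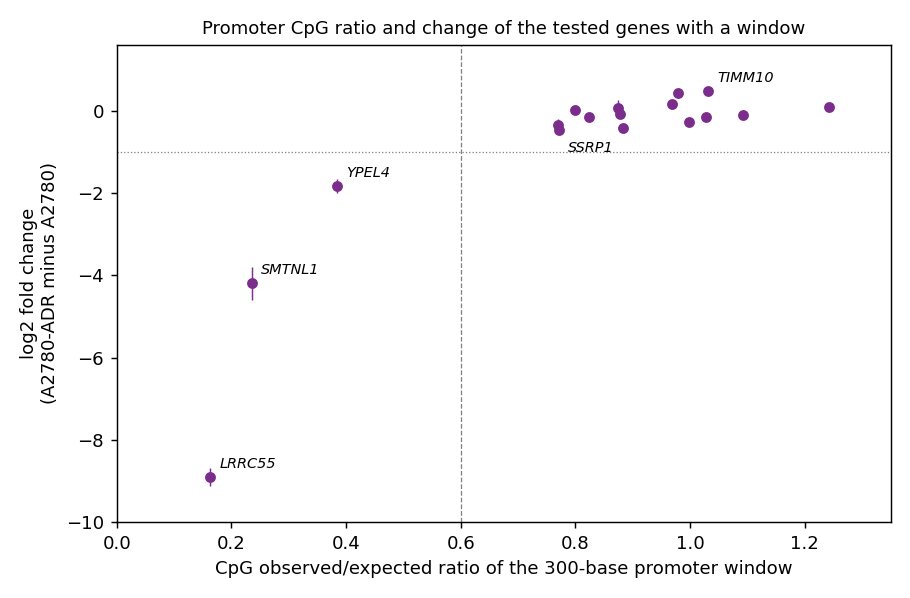
CpG observed/expected ratio of the promoter window (horizontal axis) and log2 fold change between the lines with its standard error (vertical axis) for the tested genes with a window. The dashed line is at a ratio of 0.6 and the dotted line at a log2 fold change of -1. LRRC55, SMTNL1 and YPEL4 lie at the lower left, and the other 14 genes lie to the right of 0.6 near 0.

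On the short arm the 9 tested genes from SPI1 to PTPRJ stayed within 2-fold. They had log2 fold changes from -0.43 (FNBP4) to 0.42 (PSMC3), on the scale of log2(normalized count + 1), which understates the change of genes with few reads. PSMC3, an ATPase subunit of the proteasome's regulatory particle, had 3930 (A2780 replicate 1), 3845 and 3680 in A2780 and 5161, 5493 and 4650.3 in A2780-ADR. Its samples did not overlap between the lines. FNBP4, a formin-binding protein, had 5257, 5103 and 5467 in A2780 and 3947, 3665 and 4116 in A2780-ADR, again without overlap but in the other direction. CELF1, an RNA-binding protein of splicing and mRNA decay, had 5691 ± 105 (SD, n = 3) and 4712 ± 40.0 normalized counts. MTCH2, an insertase of the outer mitochondrial membrane, had 6349 ± 59.1 and 7032 ± 209. These small shifts exceeded the spread between samples of a line without reaching 2-fold.

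NUP160, a scaffold of the nuclear pore's Y complex, was nearly equal, at 5452, 5686 and 5651 in A2780 and 5651, 5707 and 5639 in A2780-ADR. PTPRJ, a receptor-type tyrosine phosphatase, had 647 ± 51.7 and 555 ± 60.8, with overlap between the lines. KBTBD4, a substrate adaptor of cullin ubiquitin ligases, had 359 ± 39.6 and 319 ± 25.3. Samples of the lines also overlapped for KBTBD4. AGBL2, a carboxypeptidase that acts on tubulin tails, had 231 ± 40.1 and 179.9 ± 12.2. PTPMT1, a mitochondrial phosphatase of cardiolipin synthesis, had 73.2 ± 7.05 and 77.5 ± 17.9. PTPMT1 lies wholly within NDUFS3 on the same strand. KBTBD4 lies opposite NDUFS3 over its whole length and opposite PTPMT1 over part of it, so reads of these genes may be shared.

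SPI1, RAPSN and C1QTNF4 had few reads in either line. SPI1 encodes PU.1, a transcription factor of myeloid and B cells, and had 11 reads in the A2780 libraries and 30 in A2780-ADR. The ratio was 2.53 with a 95% interval of 1.23 to 5.60, which like all such intervals given here covers counting error only. Leukocyte markers summed to 131 to 134 in A2780 and 67.2 to 82.8 in A2780-ADR, with CD3E at 0 and PTPRC at 1.75 and 2.88. Their part in the SPI1 reads was not tested. RAPSN, which clusters acetylcholine receptors at the neuromuscular junction, had 2 and 10 reads, a ratio of 4.65 (0.990 to 43.6). C1QTNF4, a secreted protein with C1q-like domains, went the other way with 31 and 5 reads, a ratio of A2780 to A2780-ADR of 6.67 (2.57 to 22.0).

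FOLH1, which encodes prostate-specific membrane antigen, a folate and glutamate carboxypeptidase, stood apart from its neighbours. It lies 976 kb from PTPRJ, its nearest listed neighbour on the short arm, and 7973 kb across the centromere from LRRC55. Its normalized counts were 70.2, 61.1 and 61.2 in A2780 and 0.946, 1.93 and 4.81 in A2780-ADR. Every A2780 sample was far above every A2780-ADR sample, with 187 reads against 8, a 25.2-fold ratio (95% interval 12.5 to 59.1) and a log2 fold change of -4.34 ± 0.37 (SE). Its near-identical copy FOLH1B, a transcribed pseudogene on the long arm of the same chromosome outside the span, was named after its values were seen and had 388 ± 23.6 and 1.91 ± 0.962 normalized counts. FOLH1B was thus lower as well, with a log2 fold change of -7.11. How reads that match both copies were assigned is not given in the sources used here, so the level of FOLH1 is uncertain.

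In 11q12 the levels were lower over one stretch of neighbouring genes, on the list or not. From OR5G5P to YPEL4 (chr11:56801856-57649944, 0.848 Mb), a stretch bounded after the values were seen and therefore given no test, the annotation lists 35 genes, of which 18 could be compared. Of these 16 were lower, 0 were higher and 2 (SSRP1 and TIMM10) were not called. The 10 tested genes of the stretch that are not on the list were all lower. Of these, OR5G5P, FADS2P1, OR5AK2, OR5AK1P, OR5AK4P and OR5AO1P averaged 0 to 0.952 in A2780-ADR. Like LRRC55 and SMTNL1, they reached the mean of 10 through A2780 alone and could only be called lower. CLP1, the next tested gene after the stretch, overlaps YPEL4 and was not called. The next tested gene of the span before OR5G5P, AC135977.1 (chr11:49433480-49434438), was not called either. It lies far off, near FOLH1 across the centromere. RPL5P29, a processed pseudogene nearer to OR5G5P (chr11:56357328-56358221), was named after its values were seen. It was below the filter, with 16 reads in A2780 and 19 in A2780-ADR. No gene between AC135977.1 and OR5G5P was tested, so where the lower levels begin on that side cannot be placed.

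**Figure D3:**
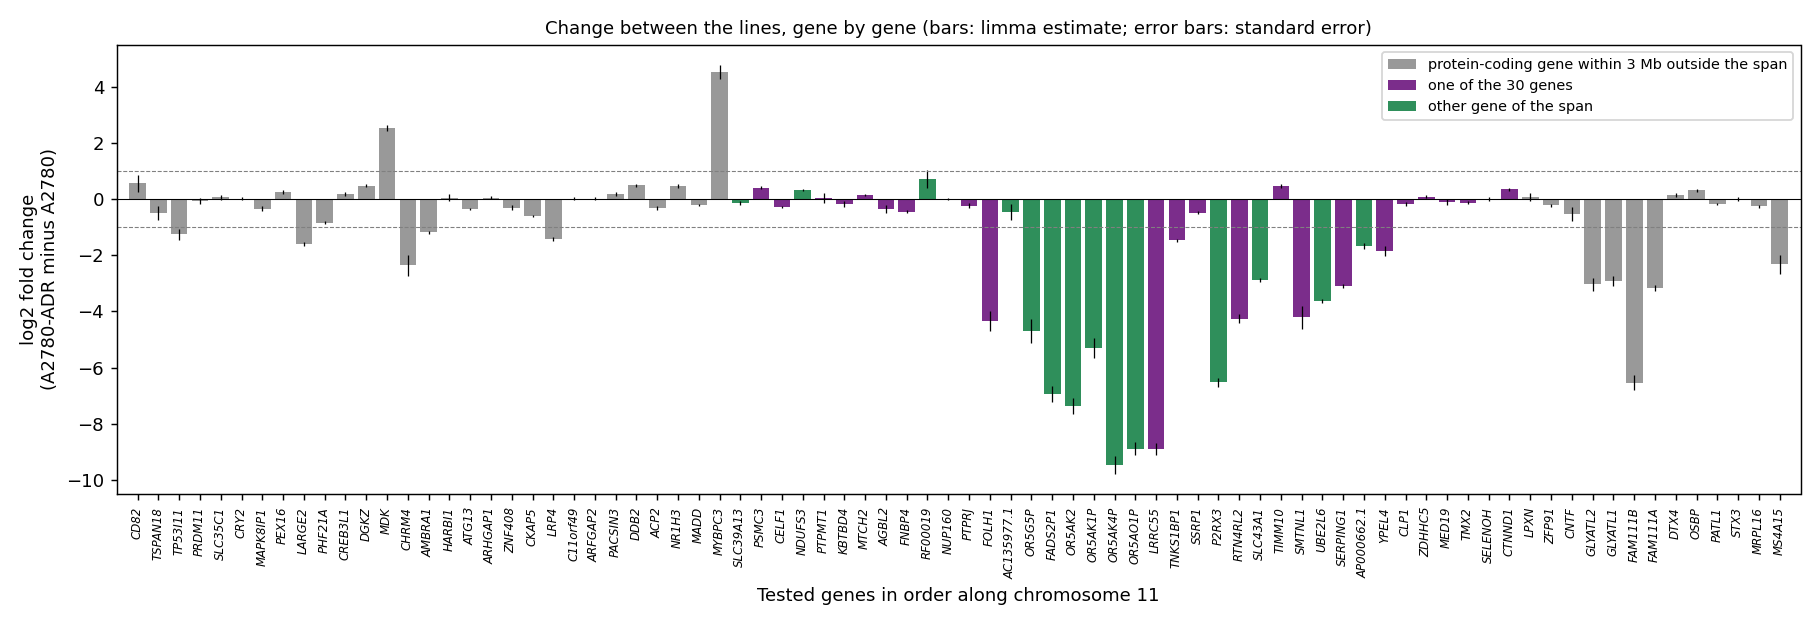
Log2 fold change (A2780-ADR minus A2780) of each tested gene in order along chromosome 11, with its standard error. Purple bars are the listed genes, green bars other genes of the span and grey bars protein-coding genes within 3 Mb outside it, and dashed lines mark 2-fold. Bars point down from OR5G5P to YPEL4 except TIMM10, which points up, and SSRP1 stays within the dashed lines, while the bars before FOLH1 and after YPEL4 in the span stay within 2-fold.

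LRRC55, an auxiliary subunit of calcium-activated BK potassium channels, had 486, 494 and 457 normalized counts in A2780 and 0 reads in each A2780-ADR library. Against the 95% limit of 3 reads that a total of 0 over the 3 libraries allows, it was at least 501-fold lower in A2780-ADR. APLNR, the G protein-coupled receptor for apelin, lies next to it and had 17.3, 16.3 and 12.7 in A2780 and 0 in each A2780-ADR library, at least 16.1-fold lower. Both genes were thus read in every library of one line and in none of the other.

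The genes of the stretch before LRRC55, most of them olfactory receptor genes or pseudogenes, showed the same on-off contrast. OR5AK2, an olfactory receptor gene, had 172, 133 and 197 in A2780 and 0 reads in A2780-ADR, at least 175-fold lower. The pseudogene OR5AK4P had 3714 reads in A2780 and 3 in A2780-ADR, a ratio of 1332 with an interval of 456 to 6464. OR5AO1P had 525, 534 and 383 in A2780 and 0 in A2780-ADR, at least 503-fold lower. FADS2P1, a pseudogene outside the receptor family, had 135, 101 and 132 against 0, at least 128-fold lower. OR5AK1P and OR5G5P, named after their values were seen, averaged 39.3 and 27.0 in A2780 and were at 0 in A2780-ADR. Together the 11 annotated genes of the stretch before LRRC55 held 2118, 2007 and 2141 reads in the A2780 libraries and 2, 1 and 0 in the A2780-ADR libraries.

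Most olfactory receptor genes of the span were silent in both lines. Of 147 receptor genes and pseudogenes, 134 had 0 reads in all 6 samples, 13 had a read in A2780 and 1 in A2780-ADR, for 5885 and 3 reads in all. The genes from FADS2P1 on lie on the plus strand, as LRRC55 does, and OR5G5P lies on the minus strand. OR5AK4P ends 143 kb before LRRC55 starts. Per kb of exon, OR5AK4P had 1414 and OR5AO1P 1602 normalized counts in A2780, whereas LRRC55 had 88.6.

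**Figure D4:**
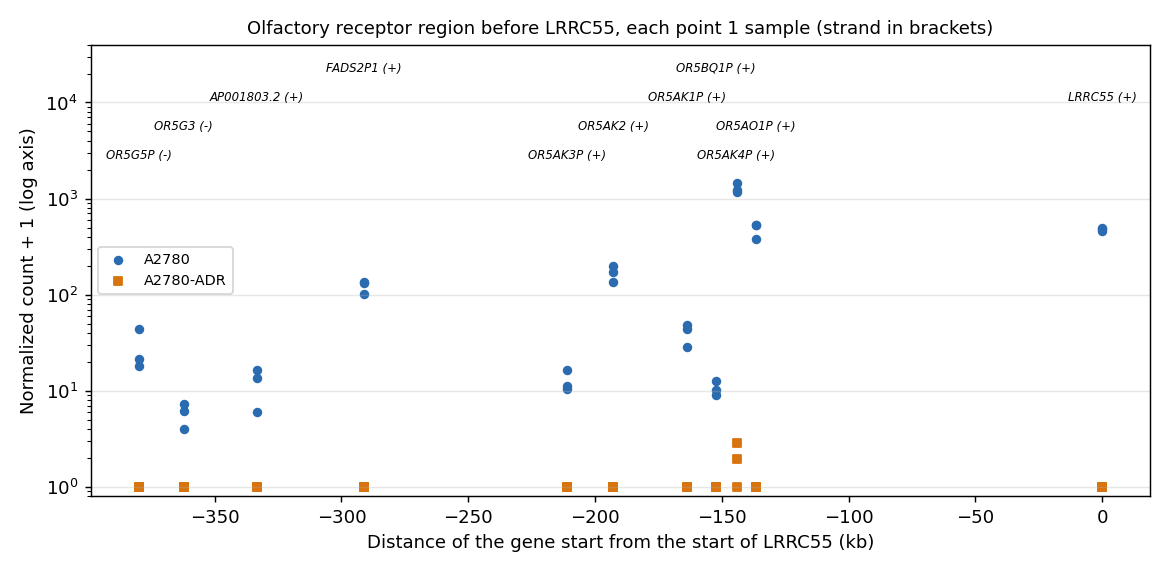
Normalized count + 1 (log axis) against the distance of each gene's start from the start of LRRC55 in kb, with blue circles for the A2780 samples and orange squares for the A2780-ADR samples. The strand stands in brackets after each name. All orange points lie at 1 (0 reads) except those of A2780-ADR replicates 1 and 2 for OR5AK4P, with 3 reads in all, while the blue points of OR5AK4P, OR5AO1P and LRRC55 lie between 383 and 1436 normalized counts.

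TNKS1BP1, SSRP1 and P2RX3 stand next to each other after APLNR. TNKS1BP1, a tankyrase-binding protein, had 8384, 7779 and 7367 in A2780 and 2937, 2983 and 2626 in A2780-ADR, with no overlap and a log2 fold change of -1.46 ± 0.06 (SE). SSRP1, a subunit of the histone chaperone FACT, lies 1.03 kb from it and had 20047, 19869 and 19108 against 14615, 14696 and 13157. Its samples did not overlap either, but the log2 fold change of -0.48 ± 0.05 stayed within 2-fold. P2RX3, the ATP-gated channel of sensory neurons, is not on the list and lies 2.50 kb beyond SSRP1, and it had 1367, 1189 and 1130.5 in A2780 and 13.2, 14.5 and 9.62 in A2780-ADR, a log2 fold change of -6.53. The gene that stayed within 2-fold was thus flanked closely by genes that were lower on both sides. PRG3 and PRG2, the major basic proteins of eosinophil granules, had 0 reads in all 6 samples, which allows at most 3 reads over the libraries of a line. Granulocyte and eosinophil markers summed to 59.1 to 85.5 in A2780 and 61.5 to 62.6 in A2780-ADR, with ELANE at 63.7 and 36.7 (not called), CSF3R higher at 3.43 and 19.1, and CLC at 0.

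RTN4RL2, a homologue of the Nogo receptor of neurons, had 324, 322 and 326 in A2780 and 18.0, 18.3 and 12.5 in A2780-ADR. The samples were tightly grouped within each line, and the log2 fold change was -4.25 ± 0.17 (SE). SLC43A1, a carrier of large neutral amino acids that is not on the list, followed with means of 2271 ± 41.3 and 308 ± 20.3. TIMM10, a small chaperone of mitochondrial protein import, lies 12.7 kb further on and was the one gene of the stretch with a positive log2 fold change, 0.48 ± 0.07. It had 1016, 1012 and 1103 in A2780 and 1481, 1539 and 1345 in A2780-ADR, without overlap and within 2-fold. SMTNL1, a smoothelin-like protein of muscle, had 68.2, 51.9 and 64.4 in A2780 and 1.89, 5.78 and 0.962 in A2780-ADR. That was 179 reads against 9, a ratio of 21.4 (95% interval 11.03 to 47.6). UBE2L6, the conjugating enzyme of the interferon-induced modifier ISG15, lies 1.38 kb from SMTNL1, is not on the list and had means of 4836 ± 157 and 393 ± 45.1.

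SERPING1 had 5020 normalized counts in A2780 replicate 1, 5048 in replicate 2 and 4768 in replicate 3. In A2780-ADR it had 532, 602 and 607, so that every sample of one line was far from every sample of the other. The level was 8.53-fold lower (95% interval 8.12 to 8.96) and the log2 fold change was -3.09 ± 0.06 (SE). Per kb of exon, SERPING1 had 1373 normalized counts in A2780 and 161 in A2780-ADR. In A2780 this was between the values of TIMM10 (1344) and TMX2 (1468), and in A2780-ADR between those of KBTBD4 (96.5) and MED19 (195).

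YPEL4, a member of the Yippee-like family, had 343, 261 and 282 in A2780 and 63.4, 86.7 and 97.2 in A2780-ADR. The lines did not overlap, and the log2 fold change was -1.84 ± 0.17 (SE). AP000662.1, a non-coding gene named after its values were seen, overlaps YPEL4 on the opposite strand along its whole length and had means of 334 ± 14.2 and 104 ± 4.49. The library kit keeps strand, but the strand setting of the counting is not given in the sources used here, so reads of the pair may not be separable. AP000662.1 also overlaps CLP1 on the same strand over 3799 bases, so reads of AP000662.1 and CLP1 may not be separable either.

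After YPEL4 the levels of the lines came together again. CLP1, an RNA kinase of tRNA splicing and mRNA cleavage, overlaps the start of YPEL4 on the opposite strand and had 639.9, 694 and 667 in A2780 and 636, 597 and 569.7 in A2780-ADR. Its log2 fold change was -0.15. ZDHHC5, a palmitoyltransferase 17.8 kb beyond YPEL4, had 3900 ± 175 and 4169 ± 115. MED19, a Mediator subunit, had 389 ± 38.9 and 365 ± 26.5. Samples of the lines overlapped for ZDHHC5 and MED19 and not for CLP1. TMX2, a thioredoxin-related membrane protein, had 3298 ± 80.6 and 3045 ± 44.9. CTNND1, the cadherin-binding catenin p120, closed the span with 5755, 5949 and 5545 in A2780 and 7308, 7440.1 and 7342 in A2780-ADR. These did not overlap, and the log2 fold change was 0.36 ± 0.04 (SE). BTBD18, known in mice from transcription of piRNA loci in the testis, averaged 7.97 ± 5.38 and 5.43 ± 1.51, with overlap.

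The list leaves out 245 other annotated genes of the span. Of its 73 other protein-coding genes 7 were tested, and the 4 that were lower were OR5AK2, P2RX3, SLC43A1 and UBE2L6, while SLC39A13, NDUFS3 and SELENOH were not called. Of 172 other genes 8 were tested and 6 were lower. The 15 tested genes together counted 10 lower and 0 higher by limma, edgeR and DESeq2 alike. Those near 0 in A2780-ADR could only be called lower. At an unadjusted limma p under 0.05 and any fold, 2 were higher.

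Just outside the span the genes did not move together. On the short-arm side MYBPC3, cardiac myosin-binding protein C, lies 2.16 kb from SPI1 and rose from 2.40 ± 0.569 to 77.5 ± 2.05 (SD, n = 3 each, log2 fold change 4.54, limma adjusted p = 1.13e-08). Its neighbours NR1H3, a liver X receptor, and MADD, an exchange factor of Rab proteins, had log2 fold changes of 0.48 and -0.20. On the long-arm side LPXN, a focal adhesion protein 707 kb from CTNND1, had a log2 fold change of 0.09, which turned to -0.00457 without A2780 replicate 1. ZFP91, a zinc finger protein, had -0.21 and CNTF, ciliary neurotrophic factor, -0.51. None of these 5 was called, at limma adjusted p of 3.62e-05 for NR1H3, 0.00251 for MADD, 0.557 for LPXN, 0.00668 for ZFP91 and 0.0899 for CNTF.

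Within 3 Mb on each side, 42 protein-coding genes were tested, and 28.6% of them were called, 2 higher and 10 lower. Over all 733 tested protein-coding genes of chromosome 11 outside the span, these flanking genes included, 24.4% were called. In the flanks 23.8% were lower and 4.76% higher, against 14.6% and 9.82% over the 733. The share of lower genes was 17.2% in the short-arm flank and 38.5% in the long-arm flank. A second run of lower genes, named after its values were seen, began 1015 kb beyond CTNND1 with GLYATL2 and GLYATL1, glycine acyltransferase-like genes, and went on with FAM111B and FAM111A, which encode proteases. The run was therefore given no test. GLYATL2 had a log2 fold change of -3.03 and GLYATL1 one of -2.91. FAM111B went from 209 ± 31.5 to 1.28 ± 0.562 and FAM111A from 1709 ± 149.7 to 192 ± 31.8.

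Genes that work with the listed genes but lie elsewhere were compared from fixed pathway lists. Of 142 such genes 121 were tested, and 13 were higher and 9 lower (18.2% called). Over all genes tested 27.6% were called, 13.2% higher and 14.4% lower, and each list below stands against these shares. The samples are stated to be independent, yet separate cultures are not mentioned, so the p-values given here reflect the spread between these samples alone, and that spread may be technical.

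Of the proteases that C1 inhibitor blocks, C1R and C1S were higher in A2780-ADR, where SERPING1 was lower, and no other was called. C1R had 98.7, 109 and 92.9 in A2780 and 1014, 945 and 1009.6 in A2780-ADR, and rose by 3.29 on the log2 scale (limma adjusted p = 2.05e-11). C1S had 274, 283 and 249 in A2780 and 1324, 1326 and 1379 in A2780-ADR, a rise of 2.32 (limma adjusted p = 5.21e-11). Neither gene overlapped between the lines. Per kb of exon, SERPING1 was above C1R and C1S in A2780, at 1373 against 17.02 and 41.6, and below C1R (168) and C1S (208) in A2780-ADR, at 161. C3, the central complement component, rose from 58.3 ± 7.93 to 172 ± 23.0 (log2 fold change 1.54, limma adjusted p = 2.31e-06). C2, a component cleaved by C1s, fell from 18.5 ± 2.58 to 7.01 ± 2.73 (log2 fold change -1.35, limma adjusted p = 0.00346), but lost its call with a pseudocount of 5. Of the 16 genes of the list 8 were tested, with 4 higher and 1 lower, and C1QA, C1QB and C1QC, the recognition subunits of C1, had 0 reads. F12 and KLKB1, the contact proteases also inhibited by SERPING1, were not called. MASP2, a protease of the lectin pathway, had 128 ± 5.91 and 79.1 ± 5.74, without overlap and within 2-fold (log2 fold change -0.69, limma adjusted p = 0.000485). MASP1, its relative, was below the filter with 39 reads in A2780 and 4 in A2780-ADR. The fourth gene that rose was C4A, a near-identical copy of C4B, from 7.85 to 17.3 (limma adjusted p = 0.0163), and DESeq2 called 3 genes of the list higher rather than 4.

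**Figure D5:**
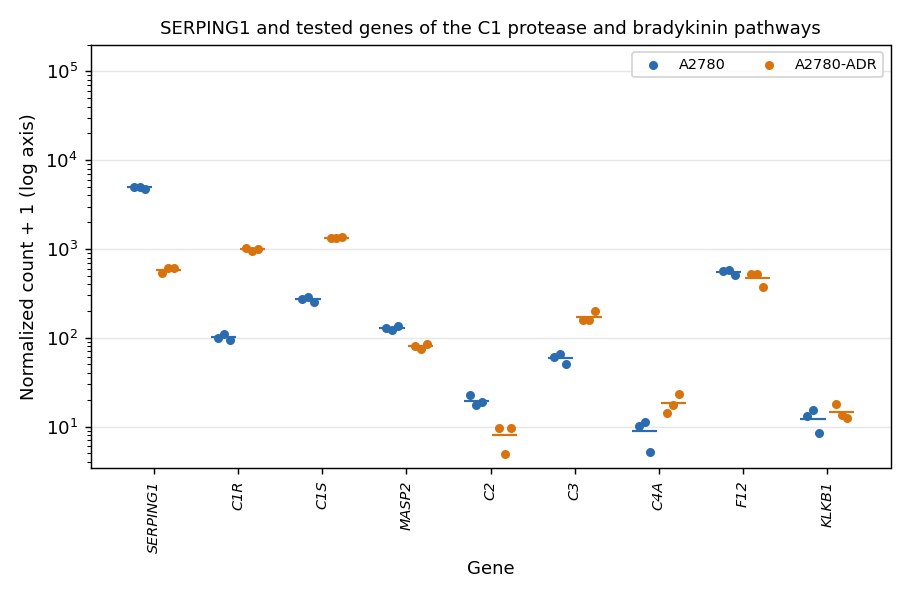
Normalized count + 1 (log axis) of SERPING1 and the 8 tested genes of the complement and contact protease list. Each point is 1 sample (blue A2780, orange A2780-ADR) and the short lines are means of 3. SERPING1 is lower in A2780-ADR while C1R, C1S and C3 are higher, and F12 and KLKB1 overlap between the lines.

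Most partners of the housekeeping genes were not called, like 12317 of all 17005 genes tested. All 30 other proteasome subunits of the list were tested, 5 were higher and 0 lower, with PSMA5 (log2 fold change 1.95, limma adjusted p = 1.12e-11), PSMB1 (1.54, 1.12e-10) and PSMD14 (1.52, 3.28e-11) leading. At an unadjusted limma p under 0.05 and any fold, 26 of the 30 were higher and 3 lower, and edgeR and DESeq2 also called 5 higher and 0 lower. The nearest share over all genes tested is at a limma adjusted p under 0.05 and any fold, with 35.4% higher and 36.4% lower. None of 9 genes of the Y complex, 5 partners of CLP1 or 9 genes of mitochondrial import was called by limma, edgeR or DESeq2. At an unadjusted limma p under 0.05 and any fold, 4 were higher and 4 lower in the Y complex, 2 and 3 among the CLP1 partners and 2 and 4 in the import list. Of 30 Mediator and FACT genes MED23 alone was called, with a rise of 1.25 (limma adjusted p = 3.93e-08). Of 8 cardiolipin genes CDS1, a synthase of CDP-diacylglycerol, was called, with 2.06 ± 2.04 in A2780 and 299.8 ± 36.9 in A2780-ADR (limma adjusted p = 5.68e-08).

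Partners of the neural and adhesion genes changed in both directions. Of 6 tested Nogo receptor genes, RTN4, which encodes Nogo itself, rose by 1.71 (limma adjusted p = 1.56e-09). In the same list the co-receptor NGFR fell by 5.09 (5.60e-10), RTN4RL1, another homologue of the Nogo receptor, by 2.25 (2.44e-08) and the co-receptor LINGO1 by 1.15 (3.75e-05). Of 9 tested cadherin and catenin genes, CTNNA1, alpha-catenin, rose by 1.07 (limma adjusted p = 1.83e-10), while CTNNA2, its neural form, fell by 4.46 (1.50e-08), CDH6, a cadherin, by 2.89 (8.88e-07) and ARVCF, a relative of CTNND1, by 1.36 (8.76e-08). APLN, the ligand of APLNR, fell by 1.21 (limma adjusted p = 0.000272), from 58.3 ± 11.2 to 24.6 ± 3.57. LRP4, the agrin receptor of the neuromuscular junction, which also lies in the short-arm flank, fell by 1.41 (limma adjusted p = 3.43e-09).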

How the data were processed

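Total RNA of 3 samples of A2780 and 3 of A2780-ADR was isolated with a column kit and made into TruSeq Stranded mRNA libraries. The deposited signal per gene is a read count that the authors scaled with DESeq (a normalized count). STAR, HTSeq and GRCh38 stand in the submitters' processing notes. Versions, the annotation and the strand setting are not given in the sources used. Dividing by the smallest step gave whole reads for 100% of values in every sample (tolerance 0.01). Depth was 27775745 to 30513366 reads in genes, of which mitochondrial genes held 5.54% to 6.36%.

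The 17005 genes with a mean of at least 10 entered limma 3.58.1 (R 4.3.3) as log2(normalized count + 1), and p-values were adjusted over all of them (Benjamini-Hochberg). Names and positions came from GENCODE release 29 (57447 of 58051 identifiers) and promoters from RefSeq. Lower bounds against 0 reads use 3 reads over the libraries of a line. The genes, lists and tests were chosen with earlier results of these data known. Named genes were the 30 genes, called protein-coding genes of the span, 3 tested protein-coding genes at each end, up to 3 called non-coding genes of the span per direction and up to 3 called genes per direction in each pathway list. Alternatives were pseudocounts of 0.5 and 5, a minimum mean of 50 or none, totals set equal, TMM, robust limma, edgeR 4.0.16, DESeq2 1.42.0, a replicate block, omission of each sample and no fold threshold, and for promoters the 250 bases before the start alone. The comparison was also run on simulated counts with 200 changed genes and the same spread setting for every gene. In these data 4688 genes were called, so the simulation does not give the error rate here. Figures used Python 3.11.15 and matplotlib 3.10.9.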

Additional observations from a re-analysis of the deposited data

How the results depend on the processing

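All 7 lower genes of the list kept that call in every alternative in which they were tested, and FOLH1 and SMTNL1 were not tested at a mean of at least 50. The other 16 tested genes stayed uncalled except without the fold threshold, when 4 of the list were higher and 13 lower. Without it, 6013 genes were called higher and 6197 lower over the whole table, 1 higher among the other genes of the span, 10 higher and 20 lower in the flanks, and 57 higher and 42 lower among partner genes. With no filter 3512 genes were higher and 3495 lower, and 1 of the list was higher, RAPSN, on 12 reads in all, and 9 lower, with C1QTNF4 and APLNR added. At a mean of at least 50, 1400 genes were higher and 1555 lower, and 1 flanking gene was higher. Leaving out single samples gave 0 to 1 higher genes among the others of the span, the 1 being RF00019 without A2780 replicate 3, where OR5G5P fell below the filter. It gave LPXN log2 fold changes from -0.00457 to 0.19. In the 250 bases before the start alone, TATAAA was in 1 of 19 windows. The fitted log2 fold change of LRRC55 ran from -11.91 (edgeR) to -6.60 (pseudocount 5), since its A2780-ADR libraries are at 0. C2 was at a log2 fold change of -0.99 with a pseudocount of 5. The replicate numbers did not pair the samples (correlations of deviations 0.00398, -0.0159 and 0.0771), and with the replicate block 2246 genes were higher and 2444 lower, 7 of the list among them. Counts under 10 limit what can be said of SPI1, RAPSN, C1QTNF4, APLNR and BTBD18.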
